A study of Mus musculus with 7 samples.

Results

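The genes described here encode the hydrolases, lipid carriers and membrane proteins of the lysosome, apart from its cathepsin and legumain proteases. They comprise 34 genes chosen by function and name, of which 32 had a value here: 10 glycosidases, 4 of 5 sulfatases, 8 lipid enzymes, activators and carriers, 3 genes of peptidases and progranulin, and 7 of 8 membrane proteins. Arsb and Cd63 had no probe set naming them alone. Ctsa was kept among the 3 because its product, also called cathepsin A, is a serine carboxypeptidase that protects β-galactosidase and sialidase. Each gene was represented by 1 probe set, the group of array probes designed against its transcript, taken as the one with the highest mean over all 7 arrays among those naming that gene alone. The same choice gave 12393 genes on the whole array.

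The cells were CD11c+ cells taken by magnetic (MACS) sorting from the spleens of mice on day 7 after an allogeneic hematopoietic stem cell transplant (allo-HSCT), in which the graft comes from a genetically different donor. The groups were wild type (WT, 4 arrays) and Atg16L1 hypomorphic (3 arrays), both with the background C57BL/6J and both transplanted; a hypomorph keeps part of a gene's function, and Atg16l1 encodes a protein that attaches LC3 to autophagosome membranes. The age is given as 8 weeks in 1 description and 9 weeks in another. The labels do not tell whether host, graft or both carried the genotype, nor how many animals stood behind each array. The p-values therefore cover the spread among these samples alone, which may be technical.

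The array medians lay between 5.46 and 5.53 on the log2 scale, and each array correlated with the rest at a mean r of 0.990 to 0.993. Atg16l1 read 7.20 to 7.42 in wild type and 6.76 to 6.94 in the hypomorph, without overlap (log2 change -0.45, limma adjusted p = 0.462). Whether this probe set overlaps the mutated sequence is unknown here, which limits it as a check of the labels. Among 15 measured dendritic cell markers, 7 were above the upper quartile of every array, among them Itgax, which encodes CD11c, and the class II genes H2-Aa and H2-Ab1. The 7 also held Cd74, Irf8, Sirpa and Bst2. Of the rest, Flt3, Zbtb46, Xcr1, Ccr7, Irf4 and Esam were above the upper quartile on no array, Batf3 on 1 and Clec10a on 4. Of 14 red pulp macrophage markers 13 were above it on every array, as were 7 of 8 neutrophil and 6 of 10 monocyte markers. In such mixed samples more cells of a type and more RNA per cell cannot be told apart.

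Lysosomal hydrolases are soluble enzymes that break down glycans, sulfated sugars, lipids and proteins delivered by endocytosis, phagocytosis and autophagy, and each works best at the acid pH that the lysosome maintains. Most are carried from the Golgi by mannose 6-phosphate receptors, while heavily glycosylated membrane proteins line the organelle. Many of their genes share the CLEAR element, an E-box bound by TFEB, TFE3 and MITF. Dendritic cells and macrophages both rely on these enzymes, macrophages for clearing engulfed cells and dendritic cells for processing antigens.

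Of the 32 members, 28 had a higher mean in the hypomorph (87.5%) and 4 a lower one, where 49.2% of all genes were higher. The median log2 change, hypomorph minus wild type, was 0.13 over the members and -0.0024 over all genes. The changes were small, from -0.20 for Galns to 0.50 for Laptm4a, and 8 members were above 0.2. No member passed an adjusted p of 0.05 over all probe sets in the limma fit, and 0 of 22625 probe sets did; the smallest adjusted p among the members was 0.644. At an unadjusted p under 0.05 there were 2 members, Npc2 and Laptm4a, both higher, where 3.57% of all genes were higher and 3.59% lower by that rule, 7.17% together. The same 2 genes were the members whose groups did not overlap, with every hypomorph array above every wild-type array; 2.43% of all genes met that in this direction and 2.72% in the other, in which there was no member. The 95% confidence interval of the other 30 members included 0. The direction of the members as a set had been seen in these data before they were chosen, so the counts are a description.

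**Figure D1:**
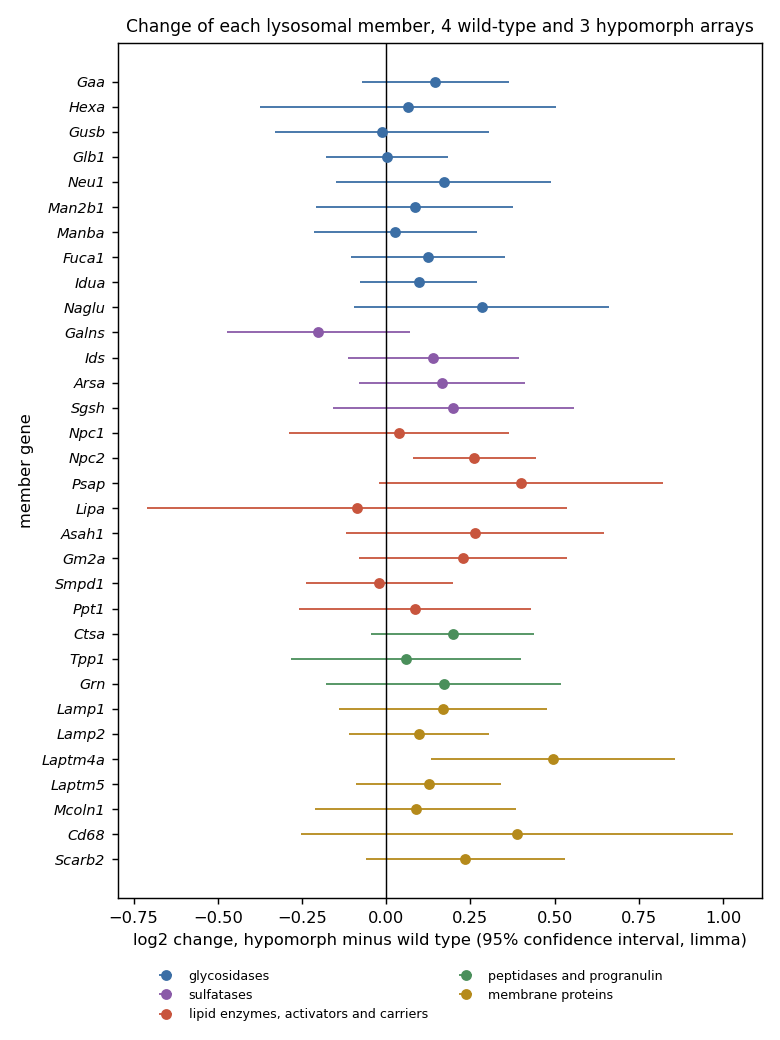
Log2 change of each of the 32 members, hypomorph minus wild type, on the horizontal axis, with points for the change and bars for the 95% confidence interval from limma; colours give the role of the gene. Most points lie to the right of 0, and the intervals of Npc2 and Laptm4a alone lie wholly above it.

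The cumulative plot of changes sets the members beside all genes and beside 55 further genes of the lysosome listed by role. At a change of 0 the curve of all genes has reached about the middle of its height, since 6295 of 12393 genes were lower, whereas only 4 members lie to the left of that point. The members' curve ends at 0.50, within the range of all genes, which ran from -3.52 to 1.87.

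**Figure D2:**
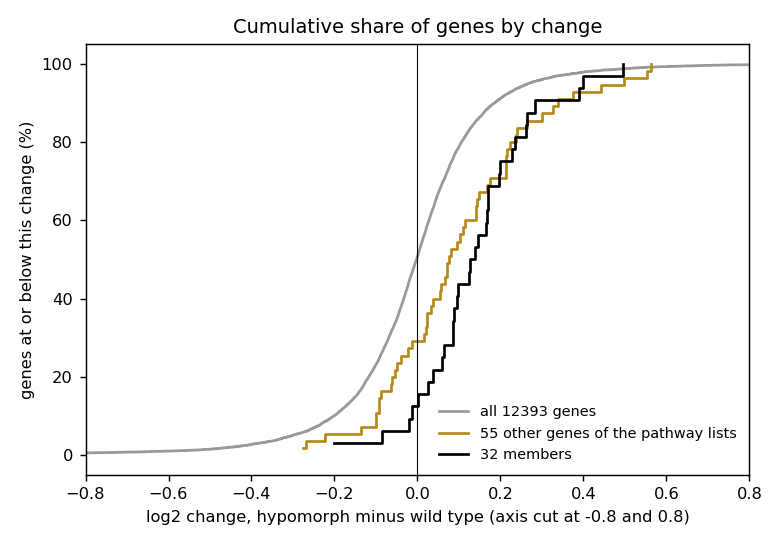
Cumulative share of genes (vertical axis, %) against log2 change (horizontal axis, hypomorph minus wild type, cut at -0.8 and 0.8) for all 12393 genes in grey, 55 other genes of the pathway lists in ochre and the 32 members in black. The black curve lies to the right of the grey one through most of its height.

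The promoters of 31 members were found in the RefSeq table for the GRCm38.p6 assembly (250 bases before to 50 after the start site); Galns, Npc1 and Asah1 had no entry. The letters CACGTG, the palindromic core of the CLEAR element, occurred in 8 of the 33 member promoters, or 24.2%, against 7.15% of all 32851 promoters in the table and 9.11% of those of genes measured on the array. With a T in front, TCACGTG on either strand, which contains the shorter motif, it was again 24.2% of the member promoters, against 3.77% of all and 5.14% of those of genes measured on the array. Among promoters of the other pathway genes 22.5% held CACGTG and 21.1% TCACGTG. The parts before the start site that hold these letters are shown because they carry the element named for lysosomal genes; CACGTG is in capitals.

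Lamp1: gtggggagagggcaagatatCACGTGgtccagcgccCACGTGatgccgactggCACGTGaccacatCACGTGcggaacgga
Mcoln1: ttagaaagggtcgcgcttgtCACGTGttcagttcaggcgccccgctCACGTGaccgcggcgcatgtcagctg
Ctsa: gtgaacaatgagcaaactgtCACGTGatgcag
Naglu: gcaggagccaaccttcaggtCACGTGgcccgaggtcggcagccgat
Glb1: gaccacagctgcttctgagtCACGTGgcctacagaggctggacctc
Gaa: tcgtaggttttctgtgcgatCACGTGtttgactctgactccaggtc
Sgsh: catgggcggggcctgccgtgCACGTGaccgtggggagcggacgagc
Arsa: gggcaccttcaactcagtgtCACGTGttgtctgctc

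The Lamp1 stretch (chr8:13159080-13159160, plus strand) held the motif 4 times, with first bases at -61, -45, -28 and -15, where -1 is the base just before the start site. In Mcoln1 (chr8:3500428-3500499, plus) it stood at -71 and -45, and in Ctsa (chr2:164833741-164833772, plus) at -12, with another copy after the start. The others had 1 copy each: Naglu (chr11:101070001-101070046, plus) at -73, Glb1 (chr9:114401010-114401055, plus) at -48, Gaa (chr11:119267803-119267848, plus) at -140, Sgsh (chr11:119355514-119355559, minus) at -29 and Arsa (chr15:89477425-89477460, minus) at -16. A match is a description of letters, not a bound site. The 8 members with the motif had a median log2 change of 0.17, from 0.0016 for Glb1 to 0.28 for Naglu. The 21 measured members with a promoter entry and without it had a median of 0.12, from -0.09 for Lipa to 0.50 for Laptm4a, and 18 of them were higher. Neither Npc2 nor Laptm4a held these letters in this window, so the members without overlap were not among those that carry the motif.

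The glycosidases, enzymes that cut sugars from glycoproteins, glycolipids and glycosaminoglycans, had a median log2 change of 0.09, with 9 of 10 higher. Without wild-type replicate 1 that median was 0.0341 with 6 of 10 higher, and without hypomorph replicate 3 it was 0.0367 with 7 higher. On the arrays in the order wild-type replicates 1 to 4 and then hypomorph replicates 1 to 3, the order used for all values below, Naglu read 6.15, 6.71, 6.66 and 6.78, then 6.93, 6.67 and 6.98. Naglu encodes the glucosaminidase that acts on heparan sulfate. Its hypomorph replicate 2 lay within the wild-type range and the other hypomorph arrays lay above it, a change of 0.28 (95% confidence interval -0.10 to 0.66; limma adjusted p = 0.669) that was 0.14 with wild-type replicate 1 left out.

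Gaa, the acid α-glucosidase that degrades glycogen, read 7.53, 7.62, 7.64 and 7.57, then 7.67, 7.59 and 7.95. Hypomorph replicates 1 and 3 were above every wild-type array and replicate 2 was among them (change 0.15, -0.07 to 0.37, limma adjusted p = 0.696). With replicate 3 left out the Gaa change was 0.0402. Neu1, a sialidase, had means of 7.72 and 7.89 (wild type first, as in all pairs of means here), a change of 0.17 (-0.15 to 0.49). Fuca1, a fucosidase, had means of 9.58 and 9.71 and a change of 0.12 (-0.10 to 0.35). Idua, which removes iduronic acid from heparan and dermatan sulfate, had means of 6.71 and 6.81 and a change of 0.10 (-0.08 to 0.27). In these 3 genes hypomorph replicate 3 was the highest of the 7 arrays, and with it left out the changes were 0.0332 for Neu1, 0.0460 for Fuca1 and 0.0415 for Idua. With hypomorph replicate 2 left out Neu1 was at 0.31 and Fuca1 at 0.24.

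The other glycosidases were closer to 0. The α-mannosidase gene Man2b1 had means of 10.62 and 10.70 and a change of 0.08 (-0.21 to 0.38). For the β-mannosidase gene Manba the means were 6.98 and 7.01 and the change 0.03 (-0.22 to 0.27). Hexa, the α subunit of β-hexosaminidase, had means of 9.63 and 9.70 and a change of 0.07 (-0.37 to 0.50). Glb1, the β-galactosidase, had a wild-type mean of 7.67 ± 0.0933 (SD, n = 4) and a hypomorph mean of 7.67 ± 0.0847 (SD, n = 3), with an interval for the change of -0.18 to 0.18. Gusb, the β-glucuronidase, was the only glycosidase with a lower mean, 9.26 after 9.28 in wild type, a change of -0.01 (-0.33 to 0.31).

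Sulfatases remove sulfate groups from glycosaminoglycans and sulfolipids, and their 4 measured genes did not share a direction; their median of 0.15 was 0.0768 without hypomorph replicate 1. Galns, the galactosamine 6-sulfatase, had the lowest change of all members. It read 6.78, 6.78, 6.90 and 6.92, then 6.73, 6.36 and 6.83. Hypomorph replicate 2 stood well below the others, replicate 1 was just below the wild-type arrays and replicate 3 was among them. The change was -0.20 (-0.47 to 0.07, limma adjusted p = 0.674), and -0.06 without hypomorph replicate 2. Without hypomorph replicate 3 it was -0.29, and hypomorph replicates 1 and 2 both lay below every wild-type array.

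Arsa, the arylsulfatase that acts on sulfatide, read 6.85, 7.17, 6.99 and 7.22, then 7.18, 7.15 and 7.35. The groups overlapped, with wild-type replicate 1 lowest and hypomorph replicate 3 highest, and the change was 0.17 (-0.08 to 0.41), or 0.0965 without wild-type replicate 1. Sgsh, the heparan N-sulfatase, had means of 5.58 and 5.78 and a change of 0.20 (-0.16 to 0.56). With hypomorph replicate 1 left out that change was 0.06, and with replicate 2 left out 0.37, so its size rested on single arrays. Ids, the iduronate 2-sulfatase, had means of 4.95 and 5.09 and a change of 0.14 (-0.11 to 0.39). It was 0.0804 with wild-type replicate 3 left out and 0.22 with hypomorph replicate 2 left out. Its values lay below the median of every array. The change was 0.0695 with 32 added to the linear value and 0.0694 with all its probe sets averaged.

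The lipid enzymes, activators and carriers held the member with the smallest p. Their median change was 0.16, with 6 of 8 higher, and 0.0748, with 5 higher, when wild-type replicate 1 was left out. Npc2 encodes the soluble carrier that takes cholesterol from lysosomal lipids to the membrane protein NPC1. It read 11.39, 11.53, 11.46 and 11.44, then 11.81, 11.57 and 11.78. The 3 hypomorph arrays were above the 4 wild-type arrays, although replicate 2 was above the nearest of them by less than the spread within either group. The means were 11.46 ± 0.0561 (SD, n = 4) and 11.72 ± 0.129 (SD, n = 3), a level 1.20-fold higher (log2 change 0.26, 0.08 to 0.44; limma adjusted p = 0.644). An exact two-sided permutation test gave p = 0.0286, and no smaller p is possible with the 35 ways of dividing these arrays. A different probe set of Npc2 was likewise without overlap, at 0.28 (0.06 to 0.49). Npc1 itself, the membrane partner, had means of 7.39 and 7.43 and a change of 0.04 (-0.29 to 0.36).

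Psap encodes the precursor of the saposins, small proteins that lift sphingolipids out of membranes for their hydrolases. It read 11.11, 11.78, 11.56 and 11.80, then 12.09, 11.73 and 12.08. Hypomorph replicates 1 and 3 were above all wild-type arrays, replicate 2 lay inside their range, and wild-type replicate 1 was the lowest. The change was 0.40 (-0.02 to 0.82; limma adjusted p = 0.644), and 0.25 without wild-type replicate 1. Gm2a, the activator that presents ganglioside GM2 to β-hexosaminidase, had means of 9.89 and 10.12 and a change of 0.23 (-0.08 to 0.54). Asah1, the acid ceramidase, had means of 10.97 and 11.23 and a change of 0.26 (-0.12 to 0.65). Without hypomorph replicate 1 both changes were 0.14; without wild-type replicate 1 they were 0.15 for Gm2a and 0.14 for Asah1.

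The remaining lipid genes had changes near 0. Ppt1, which removes palmitate from proteins, had means of 9.46 and 9.54 and a change of 0.08 (-0.26 to 0.43). Smpd1, the acid sphingomyelinase, had means of 7.59 and 7.57 and a change of -0.02 (-0.24 to 0.20). Lipa, the acid lipase that frees cholesterol and fatty acids, varied more within groups than most members. Its wild-type arrays ran from 7.65 to 8.69 and its hypomorph arrays from 7.86 to 8.39, so the hypomorph values lay inside the wild-type range (means 8.20 and 8.11, change -0.09, -0.71 to 0.54).

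Among the 3 genes of peptidases and progranulin, Ctsa read 10.03, 10.24, 10.18 and 10.39, then 10.43, 10.26 and 10.52. Hypomorph replicates 1 and 3 were again above every wild-type array and replicate 2 was inside their range (change 0.20, -0.05 to 0.44, limma adjusted p = 0.660). Grn encodes progranulin, a secreted and lysosomal protein cut into granulins. It read 11.0028, 11.39, 11.16 and 11.38, then 11.58, 11.09 and 11.55, with hypomorph replicate 2 below wild-type replicates 2, 3 and 4. The change was 0.17 (-0.18 to 0.52), with 0.0840 when hypomorph replicate 1 was left out, 0.0936 when wild-type replicate 1 was and 0.33 when hypomorph replicate 2 was. Tpp1, a tripeptidyl peptidase, had means of 8.98 and 9.04 and a change of 0.06 (-0.28 to 0.40).

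All 7 measured membrane proteins had higher means in the hypomorph, with a median log2 change of 0.17, or 0.28 without hypomorph replicate 2. Without hypomorph replicate 3 the median was 0.1335 with 6 of 7 higher. With all probe sets of a gene averaged, 6 of 7 were higher, at a median of 0.2285. Laptm4a, a small transmembrane protein of late endosomes and lysosomes, had the largest change of the members. It read 10.36, 10.87, 10.47 and 10.86, then 11.25, 10.93 and 11.23. The hypomorph arrays lay above the wild-type arrays, replicate 2 by little over wild-type replicates 2 and 4. The means were 10.64 ± 0.267 (SD, n = 4) and 11.14 ± 0.178 (SD, n = 3), a level 1.41-fold higher (log2 change 0.50, 0.13 to 0.86; limma adjusted p = 0.644). Because the wild-type arrays were spread, an exact two-sided permutation test gave p = 0.0857 despite the lack of overlap.

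Lamp1 and Lamp2 encode the heavily glycosylated proteins that line the lysosomal membrane. Lamp1 read 11.19, 11.51, 11.24 and 11.55, then 11.70, 11.31 and 11.61. Hypomorph replicates 1 and 3 were above the wild-type arrays and replicate 2 was in the middle of them (change 0.17, -0.14 to 0.48, limma adjusted p = 0.743); with hypomorph replicate 2 left out the change was 0.28, and with replicate 1 left out 0.09. Lamp2 read 10.08, 10.34, 10.36 and 10.38, then 10.45, 10.33 and 10.38. Apart from wild-type replicate 1 these 6 values lay close together, and the change of 0.10 (-0.11 to 0.31) was 0.03 without that array.

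Scarb2, which encodes LIMP-2, the receptor that carries β-glucocerebrosidase to the lysosome, read 9.51, 9.85, 9.90 and 9.90, then 9.98, 9.87 and 10.22. Wild-type replicate 1 was again the lowest and hypomorph replicate 3 the highest (change 0.24, -0.06 to 0.53; 0.14 with hypomorph replicate 3 left out). Laptm5, a transmembrane protein of blood cells, had means of 11.65 and 11.78 and a change of 0.13 (-0.09 to 0.34), which was 0.0741 without wild-type replicate 2. Mcoln1, the calcium channel TRPML1, had means of 6.64 and 6.73 and a change of 0.09 (-0.21 to 0.39). Cd68, a sialomucin of the lysosomal membrane that is also used as a macrophage marker, ran from 9.40 to 10.43 in wild type (mean 9.95) and from 10.02 to 10.59 in the hypomorph (mean 10.34), a change of 0.39 (-0.25 to 1.03) that was 0.205 without wild-type replicate 1.

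**Figure D3:**
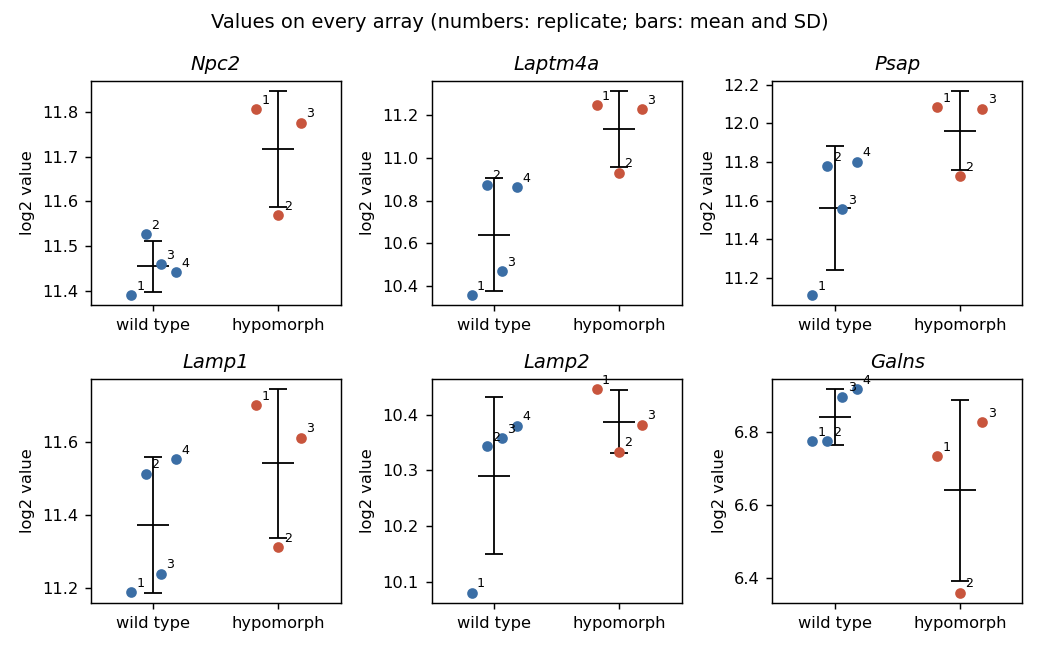
Log2 values (vertical axes, each cut to the gene's range) of Npc2, Laptm4a, Psap, Lamp1, Lamp2 and Galns on each wild-type array (blue) and hypomorph array (red), with the replicate number beside each point and the mean and SD as bars. Npc2 and Laptm4a have no overlap between groups; in Galns hypomorph replicate 2 at 6.36 stands below the rest.

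Most members had more than 1 probe set, which gave a further reading of the same RNA. The 32 members had 61 probe sets in all, and of the 29 not used above, 26 were higher and 3 lower, where 50.7% of all probe sets were higher. These readings share their arrays with the first and are not independent of them. No overlap between groups was seen in 7 of the 61, all higher, where 3.07% of all probe sets met this in that direction: those of Laptm4a, 2 of Npc2, and 1 each of Laptm5 (log2 change 0.46, 0.13 to 0.79), Fuca1 (0.23, 0.04 to 0.43), Man2b1 (0.25, 0.0028 to 0.49) and Idua (0.15, -0.01 to 0.31). The Idua one had the same value, 4.63, on the 4 wild-type arrays. For these last 4 genes the brighter probe set had changes of 0.13, 0.12, 0.08 and 0.10. An unadjusted p under 0.05 was seen in 7 of the 61, all higher, where 4.35% of all probe sets were higher by that rule; they were 2 each of Npc2 and Laptm5 and 1 each of Man2b1, Fuca1 and Laptm4a, and none passed the limma adjusted p. In Gusb, Ids, Lipa and Mcoln1 a further probe set had the opposite sign. The probe sets of Lipa ran from -0.38 to 0.04, whereas the 4 of Lamp2 lay between 0.10 and 0.19.

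The members varied together from array to array, and the SD of their median over the wild-type arrays was 0.149, beside the median change of 0.13. Relative to the wild-type mean of each gene, the median of the members was -0.21, 0.05, -0.0035 and 0.15 on the wild-type arrays and 0.17, 0.0055 and 0.26 on the hypomorph arrays, so the groups overlapped. Wild-type replicate 1 was the lowest of the 7 arrays for 23 members, or 71.9%, against 14.5% of all genes. Hypomorph replicate 2 was the lowest hypomorph array for 26 of 32 members, against 36.3% of all genes. Hypomorph replicates 1 and 3 held the highest value of 12 members each, or 37.5%, against 15.5% and 18.4% of all genes. The medians of all genes stayed within -0.02 to 0.01 on every array.

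**Figure D4:**
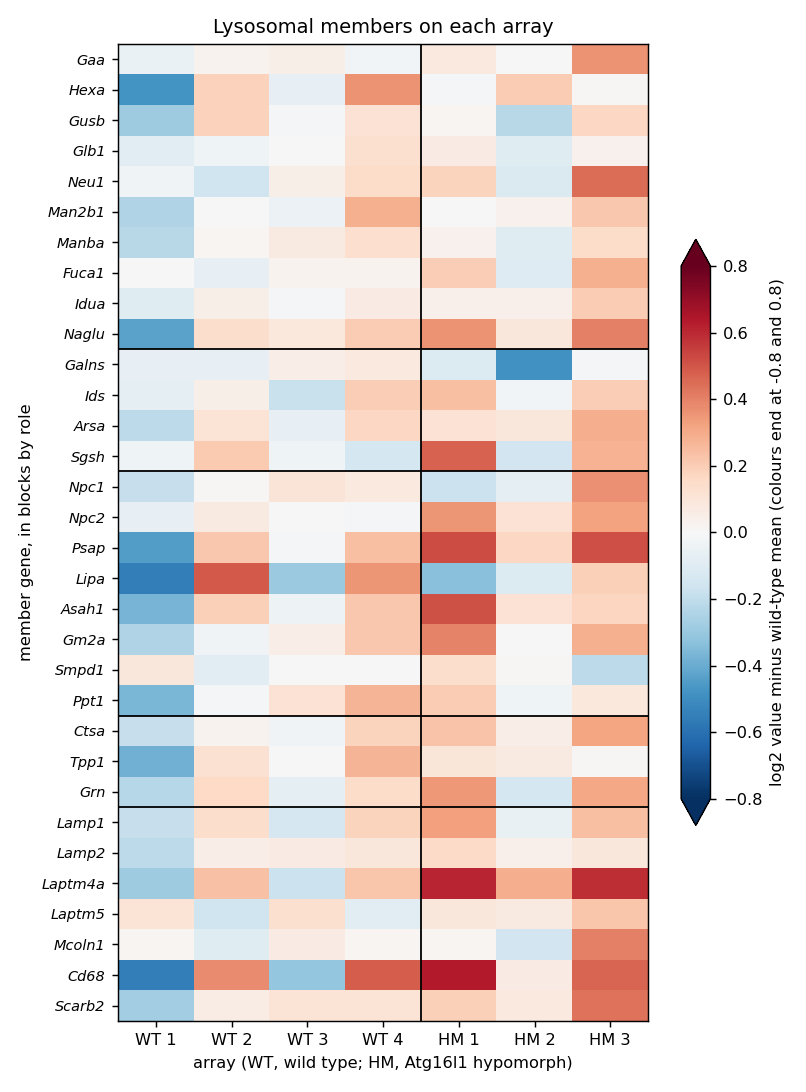
Log2 value minus the wild-type mean (colour scale, red higher and blue lower) for the 32 members (rows, in blocks by role: glycosidases, sulfatases, lipid genes, peptidases and progranulin, membrane proteins) on the 7 arrays (columns). The column of wild-type replicate 1 is mostly blue, those of hypomorph replicates 1 and 3 mostly red, and that of hypomorph replicate 2 close to white.

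Leaving out single arrays moved the members as a set. Without wild-type replicate 1, 23 of 32 members were higher with a median of 0.10, where 51.3% of all genes were higher. Without hypomorph replicate 2, 28 were higher (51% of all genes) with a median of 0.21, and 14 were without overlap, where 10.4% of all genes were without overlap in that direction. These 14 were Gaa, Neu1, Fuca1, Naglu, Sgsh, Npc2, Psap, Gm2a, Ctsa, Grn, Lamp1, Lamp2, Laptm4a and Scarb2. In that setting 9 members had an unadjusted p under 0.05, all higher, against 5.99% of all genes, and the smallest limma adjusted p was 0.152. Without hypomorph replicate 1 there was 1 such member (Npc2; 2.08% of all genes), and without wild-type replicate 4 there were 4 (Npc2, Psap, Ctsa and Laptm4a; 3.07% of all genes). Without hypomorph replicate 3 the set had 25 higher, against 48.1% of all genes, and a median of 0.09. In that setting 3 members had an unadjusted limma p under 0.05, 2 of them higher, where 2.08% of all genes were higher by that rule. There were 3 without overlap, 2 of them higher (4.62% of all genes) and Galns lower.

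Markers of red pulp macrophages, the splenic cells that clear old red cells, moved with the members across the arrays. Of 14 measured markers 13 had a higher mean in the hypomorph, with a median log2 change of 0.23, and all 14 were lowest on wild-type replicate 1. Their medians were -0.56, 0.24, -0.23 and 0.52 on the wild-type arrays and 0.36, 0.15 and 0.26 on the hypomorph arrays. Their summed level on the linear scale ran from 25852 to 46987 in wild type and from 38845 to 47230 in the hypomorph, and that of the members from 25887 to 33416 and from 31001 to 36885. No macrophage marker was below the lower quartile of any array, and the defining genes Spic, Vcam1, Cd163 and Adgre1 were above the upper quartile of all. Without wild-type replicate 1 the macrophage median was 0.0296, with 9 of 14 higher, beside 0.10 and 23 of 32 for the members. It was 0.14 without wild-type replicate 3 and 0.42 without wild-type replicate 4. The part of macrophage RNA in the members' values was not tested.

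The 15 dendritic cell markers had medians of -0.22, 0.04, 0.04 and 0.05 on the wild-type arrays, and of 0.12, 0.04 and 0.03 on the others, with 11 of 15 higher and a median log2 change of 0.09; their summed level ran from 9028 to 11034 and from 9956 to 13371. Without wild-type replicate 1 their median was 0.0185, with 9 of 15 higher, and without hypomorph replicate 2 it was 0.14. The neutrophil markers were lower in 8 of 8 cases with a median of -0.58, which was -0.24, with 1 of 8 higher, without hypomorph replicate 1. Monocyte markers were lower in 7 of 10 cases with a median of -0.12, and single arrays moved that median between -0.28 (without hypomorph replicate 2) and -0.0251 (without hypomorph replicate 3). Summed neutrophil levels ran from 55780 to 61979 in wild type and from 37244 to 61488 in the hypomorph, and monocyte levels from 22728 to 27351 and from 21613 to 29861. Erythroid and pancreatic acinar markers, at medians of -0.78 and -2.12, differed widely between arrays of 1 group. The erythroid median rested on hypomorph replicate 3 and was 0.0335, with 4 of 6 higher, without it. T cell markers were at 0.05, from -0.0696 without wild-type replicate 2 to 0.21 without wild-type replicate 1. Their medians were 0.49, -0.37, 0.07 and -0.25 on the wild-type arrays and 0.10, 0.15 and -0.08 on the hypomorph arrays. Of the 6 T cell markers 5 were highest on wild-type replicate 1, as were 21.3% of all genes. B cell markers were at -0.25, from -0.42 without hypomorph replicate 3 to -0.16 without hypomorph replicate 1. The part of all these cell types in the members' values was not tested. With wild-type replicates 3 and 4 left out, the arrays of that group richest in acinar transcripts, 29 of 32 members were higher (46.3% of all genes) with a median of 0.19.

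**Figure D5:**
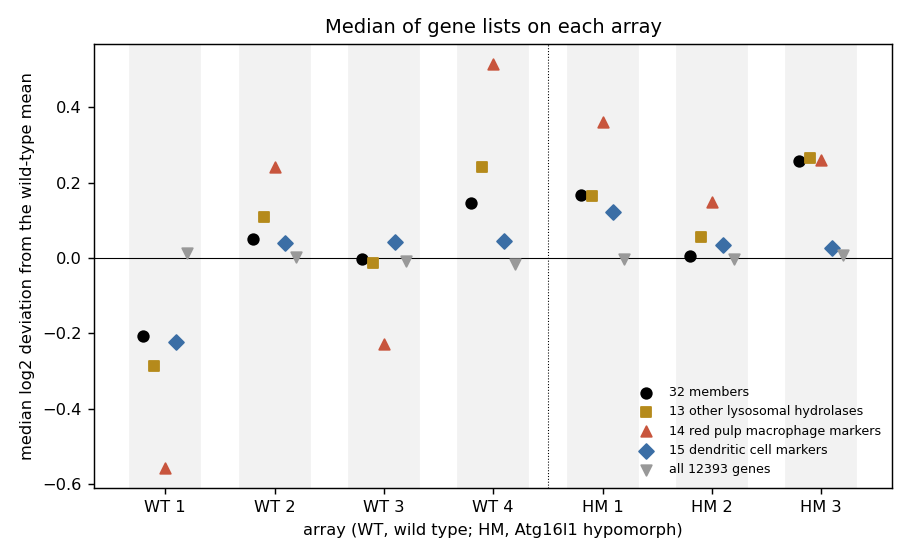
Median log2 deviation from the wild-type mean (vertical axis) on each array (horizontal axis) for the 32 members, 13 other lysosomal hydrolases, 14 red pulp macrophage markers, 15 dendritic cell markers and all 12393 genes. The macrophage markers span the widest range, from -0.56 to 0.52 among the wild-type arrays, and the members lie nearer to 0 than they do on every array, by little on hypomorph replicate 3, where both are at 0.26.

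The other genes of the lysosome were taken from lists drawn up by role. Of 13 further hydrolases 12 were higher, with a median log2 change of 0.14, and none passed the adjusted threshold. Without wild-type replicate 1 that median was 0.0396 with 9 of 13 higher, and without wild-type replicate 4 it was 0.27. An unadjusted p under 0.05 was seen in 3 of the 13, all higher, where 3.57% of all genes were. Plbd2, a phospholipase B-like protein, had a change of 0.37 (0.03 to 0.72; limma adjusted p = 0.644) and Gla, the α-galactosidase, 0.50 (0.02 to 0.97; limma adjusted p = 0.644). Gla read 6.40, 6.80, 6.80 and 6.73, then 7.50, 6.68 and 7.37, so that hypomorph replicate 2 again lay inside the wild-type range while the others were above it. These hydrolases had medians of -0.29, 0.11, -0.01 and 0.24 on the wild-type arrays, and of 0.16, 0.06 and 0.27 on the others.

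Of 20 further membrane proteins and transporters 14 were higher, with a median of 0.09 that ran from 0.0440 without hypomorph replicate 3 to 0.19 without hypomorph replicate 2. Tpcn2, an ion channel of endolysosomes, had a change of 0.55 (0.14 to 0.96) and Slc15a3, a peptide and histidine transporter, 0.56 (0.12 to 0.9996); for each the limma adjusted p was 0.644 and the groups overlapped. Over these 20 genes 3 had an unadjusted p under 0.05, all higher, where 3.57% of all genes were. The third was Laptm4b, a paralog of Laptm4a, at 0.30 (0.0062 to 0.60); it was the 1 gene of the 20 without overlap and higher, where 2.43% of all genes were. Laptm4b read 7.57, 7.96, 7.74 and 7.96, then 8.31, 8.04 and 7.99. Its hypomorph replicate 3 was thus above wild-type replicates 2 and 4 by little. This gene was named after its values were seen.

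The genes that deliver enzymes to the lysosome and activate sulfatases had a median of 0.04, with 6 of 10 higher; the median ran from 0.0111 without hypomorph replicate 3 to 0.0908 without hypomorph replicate 1. The mannose 6-phosphate receptor genes M6pr and Igf2r had changes of 0.07 (-0.15 to 0.29) and 0.21 (-0.10 to 0.53). Ap3m1, a subunit of the AP-3 adaptor that sorts membrane proteins to lysosomes, read 7.71, 7.76, 7.68 and 7.71, then 7.52, 7.37 and 7.60. It was lower in every hypomorph array than in any wild-type array (change -0.22, -0.39 to -0.06; limma adjusted p = 0.644), where 2.72% of all genes were.

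The transcription factor and signalling genes of the lysosome had a median of 0.06 (0.0276 without wild-type replicate 1), with 7 of 12 higher and none at an unadjusted p under 0.05. Tfeb, a main activator of lysosomal genes, had a change of -0.02 (-0.22 to 0.17), with 5.91 to 6.00 in wild type and 5.76 to 6.06 in the hypomorph. Mitf had a change of 0.21 (-0.37 to 0.80) and was lowest on wild-type replicate 1, with 6.28, 7.21, 6.64 and 7.17, then 7.13, 6.72 and 7.28. Tfe3 had no value here.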

How the data were processed

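RNA from 7 samples (100 ng of total RNA each) was hybridized to an Affymetrix GeneChip, 1 array per sample. For each probe set the authors deposited a log2 value on every array. Affymetrix Power Tools is named, per the submitters' processing notes; its version and the normalization method were not given in the sources used here. Near-equal medians and quartiles show values already normalized between arrays, and they were used as deposited.

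Of 22690 probe sets, 64 controls and 1 without a value were left out. Of 22625 tested, 20379 named 1 gene, 691 several and 1555 none, by the array annotation with symbols updated through Entrez identifiers (20350 found in the RefSeq table of GRCm38.p6). The comparison used limma 3.58.1 (lmFit and eBayes without a block; R 4.3.3). Its p-values were adjusted by Benjamini-Hochberg across the whole table, at a threshold of 0.05. The limma step was checked on simulated data with independent noise for each probe set. Unlike the members, simulated probe sets did not vary together on an array. The check therefore does not tell how often changes of the members' size would be found. Single genes were also compared with exact two-sided permutation tests. Precision is limited by the number of arrays.

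The members, lists and rules were chosen with earlier results of these data known. All members are named. Values on every array are given for members without overlap, the 2 with the smallest p in each role, and Lamp1 and Lamp2; the pathway genes named are up to 2 per list and direction by smallest p among those under 0.05, with Tfeb, Tfe3, Mitf, M6pr and Igf2r. Laptm4b was added after its values were seen. Promoter sequences are from RefSeq. Alternatives covered scaling, low values, a filter, the variance model, weights, the block, the probe set rule and left-out arrays.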

Additional observations from a re-analysis of the deposited data

Results flagged for a closer look

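In 4 wild-type arrays, the gap between the lowest or the highest value and the next was set against Dixon's critical share of the whole range. A gap that passes it marks an array far from the others. Chance gives this, at either end, in about 1 of 20 groups. Every such gap found here was at the lowest value. Among 32 members it occurred in Lamp2, where wild-type replicate 1 read 10.08 with a gap of 0.875 of the range, and in Scarb2, where the same array read 9.51 with a gap of 0.880. Among 10 other named genes it occurred in Gla, where wild-type replicate 1 read 6.40 with a gap of 0.830. The hypomorph group has 3 arrays and was not examined in this way.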

How the results depend on the processing

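Over 16 other settings (7 leaving out 1 array), 0 members passed an adjusted p of 0.05 with limma in any of them, and the median log2 change of the members stayed above 0. Leaving out single arrays gave 23 to 30 higher members, medians from 0.09 to 0.21, 1 to 9 members with an unadjusted p under 0.05, 2 to 14 without overlap, and 35 to 40 of 55 pathway genes higher. In those settings 2.08% to 5.99% of all genes were higher with such a p, 3.59% to 10.4% were higher without overlap, and 47.8% to 51.3% were higher. The member counts with such a p or without overlap cover both directions. Only without hypomorph replicate 3 did they hold a lower member, and counting higher members alone gave the same ranges. Centring on medians, quantile normalization and 32 added to the linear value each left 28 members higher, with medians from 0.12 to 0.14. Averaging all probe sets of a gene gave 4 members without overlap (Idua, Npc2, Laptm4a and Laptm5), where 3.13% of all genes were without overlap and higher. Leaving out wild-type replicates 3 and 4, which held the most acinar RNA, was chosen after seeing the data. It gave 5 members without overlap (7.83% of all genes) and 1, Laptm4a, with an unadjusted p under 0.05 (2.65%).

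Whether the shared replicate numbers pair the arrays is unknown, since no label pairs them. Deviations of same-numbered arrays correlated at 0.102, 0.0977 and 0.339. Arrays of different number were not correlated, so these values cannot decide it. With the replicate block, 30 members were higher with a median of 0.18, and 1 member (Laptm4a) had an unadjusted p under 0.05 (3.35% of all genes). Gusb turned to 0.0261, Lipa to 0.0333 and the median of the 13 further hydrolases was 0.27. Wild-type replicate 4 has no hypomorph array of its number, so in this fit it adds nothing to the change. The log2 changes are therefore those without that array, while the p-values differ.

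Of 511 member values recomputed, 30 changed sign, all in 10 members with changes near 0, and 22 members kept their sign throughout. The settings for the variance model and the filter keep the log2 changes of the main fit, so no sign could turn in them. The values with the block repeat those without wild-type replicate 4. The 511 values are therefore not all separate trials of the sign. With array weights Glb1 was at -0.0022, Manba at -0.0056, Npc1 at -0.0313 and Smpd1 at 0.0174. With all probe sets averaged Gusb was at 0.0646 and Mcoln1 at -0.0133, and without the acinar-rich arrays Gusb was at 0.0363. With single arrays left out the changes ran from -0.0940 to 0.19 for Hexa, -0.11 to 0.0908 for Gusb, -0.0301 to 0.0497 for Glb1, -0.0475 to 0.0892 for Manba, -0.13 to 0.14 for Npc1, -0.27 to 0.0775 for Lipa, -0.10 to 0.0744 for Smpd1, -0.0370 to 0.17 for Ppt1, -0.0711 to 0.15 for Tpp1 and -0.0684 to 0.21 for Mcoln1. The cause of these turns was not tested.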
